A study of Mus musculus with 12 samples.

Results

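The 34 genes described here encode the enzymes that make nucleotides in mouse CD4+ T cells, from the sugar phosphate on which a base is built to the deoxynucleotides used for DNA. They were chosen by symbol from a list of nucleotide synthesis enzymes, and all 34 were found among the 24538 gene rows of the deposited expression table. All 34 also passed the filter on low values, a mean of at least 3 over the 12 libraries, which kept 12436 genes. RNA was sequenced from CD4+ T cells of spleen and lymph nodes of C57BL/6 mice that were activated and cultured with interleukin 6 (IL-6) while a drug blocked the TGF-β receptor. The 4 groups of 3 libraries were KO-labelled cells at 12 h, WT cells at 12 h, KO-labelled cells at 3 h and WT cells at 3 h after treatment. The genotype label of the KO libraries was CD4cre;Smad4fl/fl, in which a Cre recombinase under Cd4 control removes a floxed stretch of Smad4, which encodes the SMAD protein that the others join to act on genes. Cd4 control also makes Cre active in the thymic precursors of CD8 T cells, so the deletion is not limited to CD4+ cells. Activation, IL-6 and the receptor inhibitor were common to all 4 groups, so no group here shows cells without them. The labels state female mice and give neither their age nor whether libraries came from separate animals. The p-values thus measure the spread between these libraries, part of which may be technical. It is not technical alone, since the replicate 2 library of each group differs from the others in sex-linked genes, as given below. The study asks how SMAD4 and its partner SKI restrain the formation of TH17 cells, and the comparisons made here are KO-labelled against WT at each time and 12 h against 3 h in each genotype.

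The values are log2 expression levels that were normalised for depth before deposit, and the read depth of the libraries is unknown. How precise a value is was therefore judged by how far the 3 libraries of its group lay apart. Smad4 itself stood at 11.50 to 11.60 in KO-labelled and 11.49 to 11.53 in WT libraries at 12 h, and at 11.62 to 11.66 in KO-labelled and 11.58 to 11.71 in WT libraries at 3 h. This value covers the whole gene, including what a floxed deletion leaves in place, and it does not check the genotype labels. Each direction given for the KO-labelled libraries therefore rests on the labels. The 4 replicate 2 libraries, 1 in each group, had Xist, the RNA of the inactive X chromosome, below the other 8 libraries (5.70 at most, where the others had 15.1 or more). The Y-linked Ddx3y was higher in these 4 (12.3 or more, where the others had 2.77 or less), which goes against the label of female mice. All 8 CD4 T cell markers had a mean of at least 10. Of 8 B cell markers 3 had a mean of at least 5, and the log2 of their summed level was 7.85 to 7.86 in KO-labelled and 7.88 to 8.26 in WT libraries at 12 h, against 8.62 to 8.72 in KO-labelled and 8.80 to 9.06 in WT libraries at 3 h. Of 8 CD8 T and NK cell markers 2, and of 9 myeloid markers 0, had such a mean, and 4 of 7 erythroid and platelet markers were listed at 0. The summed myeloid markers, at 5.24 to 5.48 in KO-labelled and 5.31 to 5.54 in WT libraries at 12 h, were also lower than at 3 h, where they stood at 6.13 to 6.75 in KO-labelled and 6.13 to 6.84 in WT libraries. The summed B cell markers were also lower in KO-labelled than in WT libraries at each time, with no overlap. The part of B and myeloid cells in the changes with time and in the genotype differences below was not tested. Where a level differs between bulk samples, fewer cells that express a gene and less RNA per cell cannot be told apart.

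Nucleotides are built along a few well-known routes. PRPP synthetases make the activated ribose phosphate, the purine pathway assembles a ring on it through a chain of enzymes that ends in IMP, and IMP is then turned into AMP or GMP. The pyrimidine pathway builds its ring first and joins it to PRPP afterwards, ending in UMP and CTP. Ribonucleotide reductase turns ribonucleotides into deoxyribonucleotides, thymidylate synthase makes dTMP with a one-carbon unit carried by folate, and salvage kinases and phosphoribosyltransferases recycle bases and nucleosides. Resting T cells rely largely on salvage, and activated T cells raise synthesis from simple precursors before they copy their DNA.

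The stretches just before the gene starts are shown for 5 members whose changes with time carry the results below: the reductase subunit genes Rrm1 and Rrm2, the thymidylate synthase gene Tyms and the purine gene Atic, all higher at 12 h, and the CTP synthase gene Ctps, which was lower. Each is the 250 bases before the start in RefSeq (build GRCm38.p6), read 5′ to 3′ on the gene's strand. Capitals mark matches to 3 motifs searched on both strands: the E-box CACGTG, which MYC and related factors bind, the E2F letters TTGGCGC or TTCGCGC, and the CCAAT box that binds NF-Y. The Rrm1 window lies at chr7:102441445-102441694 on the plus strand, the Rrm2 window at chr12:24708004-24708253 on the plus strand, and the Tyms window at chr5:30073626-30073875 on the minus strand. The Atic window lies at chr1:71556906-71557155 on the plus strand and the Ctps window at chr4:120570277-120570526 on the minus strand. The last 13 bases of the Rrm2 window and the last 6 of the Atic window fall in an annotated exon of these genes in GENCODE.
Rrm1: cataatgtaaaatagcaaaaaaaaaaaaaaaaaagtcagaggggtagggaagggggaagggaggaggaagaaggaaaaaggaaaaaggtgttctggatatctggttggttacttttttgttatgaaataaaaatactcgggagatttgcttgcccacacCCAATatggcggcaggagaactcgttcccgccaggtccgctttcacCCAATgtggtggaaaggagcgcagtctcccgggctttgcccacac
Rrm2: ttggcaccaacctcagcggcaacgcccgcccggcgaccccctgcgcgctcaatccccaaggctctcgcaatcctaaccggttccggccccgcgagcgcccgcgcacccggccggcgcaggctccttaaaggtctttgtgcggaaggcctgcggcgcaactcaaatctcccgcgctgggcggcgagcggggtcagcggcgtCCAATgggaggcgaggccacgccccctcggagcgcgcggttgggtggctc
Tyms: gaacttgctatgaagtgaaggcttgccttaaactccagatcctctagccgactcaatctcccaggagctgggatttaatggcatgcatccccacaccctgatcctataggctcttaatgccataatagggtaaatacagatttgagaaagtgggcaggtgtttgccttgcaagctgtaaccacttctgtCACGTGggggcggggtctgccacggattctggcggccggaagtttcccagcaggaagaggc
Atic: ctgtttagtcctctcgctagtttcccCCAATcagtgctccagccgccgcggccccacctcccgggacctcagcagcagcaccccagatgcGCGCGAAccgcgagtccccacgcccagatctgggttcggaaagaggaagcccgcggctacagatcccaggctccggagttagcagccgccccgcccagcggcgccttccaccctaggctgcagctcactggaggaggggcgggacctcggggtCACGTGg
Ctps: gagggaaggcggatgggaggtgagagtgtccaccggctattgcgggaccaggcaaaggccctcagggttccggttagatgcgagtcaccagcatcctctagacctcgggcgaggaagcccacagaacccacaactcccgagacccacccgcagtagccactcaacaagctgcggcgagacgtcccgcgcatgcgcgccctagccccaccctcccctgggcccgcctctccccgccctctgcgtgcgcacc

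Rrm1 held 2 CCAAT boxes, starting 91 and 45 bases before the gene start, and Rrm2 held 1, at 50 bases. Tyms held an E-box 61 bases before its start, and Atic held all 3 motifs, at 7 bases (E-box), 160 bases (E2F) and 224 bases (CCAAT). The Ctps window shown held none of them, while a second RefSeq start of the gene had an E2F match 234 bases upstream. Of the 34 members 32 were found in the RefSeq table, with 39 windows in all, and Pfas and Dhodh were not among them. The E-box stood in 6 of these 39 windows, against 6.02% of all 32851 windows and 8.49% of the windows of genes tested here. It belonged to 5 members, Atic, Impdh2, Nme1, Paics and Tyms. Each of these was higher at 12 h in both genotypes, as were 21 of all 34 members. E2F letters stood in 3 of the 39 windows, those of Adss, Atic and 1 start of Ctps, against 3.14% of all windows and 5.65% of the windows of tested genes. The CCAAT box stood in 11 of the 39 windows, against 33.8% of all windows and 35.5% of the windows of tested genes. These belonged to 11 members, among them Shmt1, which was lower at 12 h. A match is a run of letters and not evidence of binding.

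Between 3 h and 12 h most of these enzymes rose, in KO-labelled as in WT cells. In KO-labelled cells 22 of 34 were higher at 12 h, 6 were lower and 6 were not called, and in WT cells the numbers were again 22, 6 and 6 (limma, adjusted p under 0.05 over all 12436 genes). Among all genes tested 68.0% were called in KO-labelled and 67.9% in WT cells, with 34.3% called higher and 33.6% lower in KO-labelled cells, and likewise 34.3% and 33.6% in WT cells. The median change of the members was 0.37 in KO-labelled and 0.33 in WT cells on the log2 scale, against a median of -0.00 over all genes in each. A set of 21 members rose in both genotypes and 6 fell in both, namely Shmt1, Tk1, Ctps, Impdh1, Umps and Uck2. On the deposited scale neither genotype gave a call for Aprt, Dhodh, Pfas, Ppat and Prps1, Hprt was called in WT cells alone and Mthfd1 in KO-labelled cells alone. These calls depend on the scaling. Quantile normalization called Ppat and Pfas higher in both genotypes and Aprt higher in KO-labelled cells (0.18, adjusted p = 0.0242), while median centring called Prps1 lower in KO-labelled cells (-0.20, 0.0236) and Aprt lower in WT cells (-0.19, 0.0137). Of these differences between genotypes none passed its own test, as given below. At least 2-fold rises were seen in 6 members in each genotype, Tyms, Rrm2, Dut, Dck, Rrm1 and Prps2, against 10.5% of all genes in KO-labelled and 10.2% in WT cells. The values at 12 h and 3 h did not overlap, in the direction of a rise, in 21 members in KO-labelled cells (35.0% of all genes) and 23 in WT cells (37.0%). In the direction of a fall they did not overlap in 6 members in each (34.5% and 35.8% of all genes). Across the 34 members the changes in the 2 genotypes had a Pearson r of 0.993, with the same sign in 33 and a largest gap of 0.31, for Tyms.

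**Figure D1:**
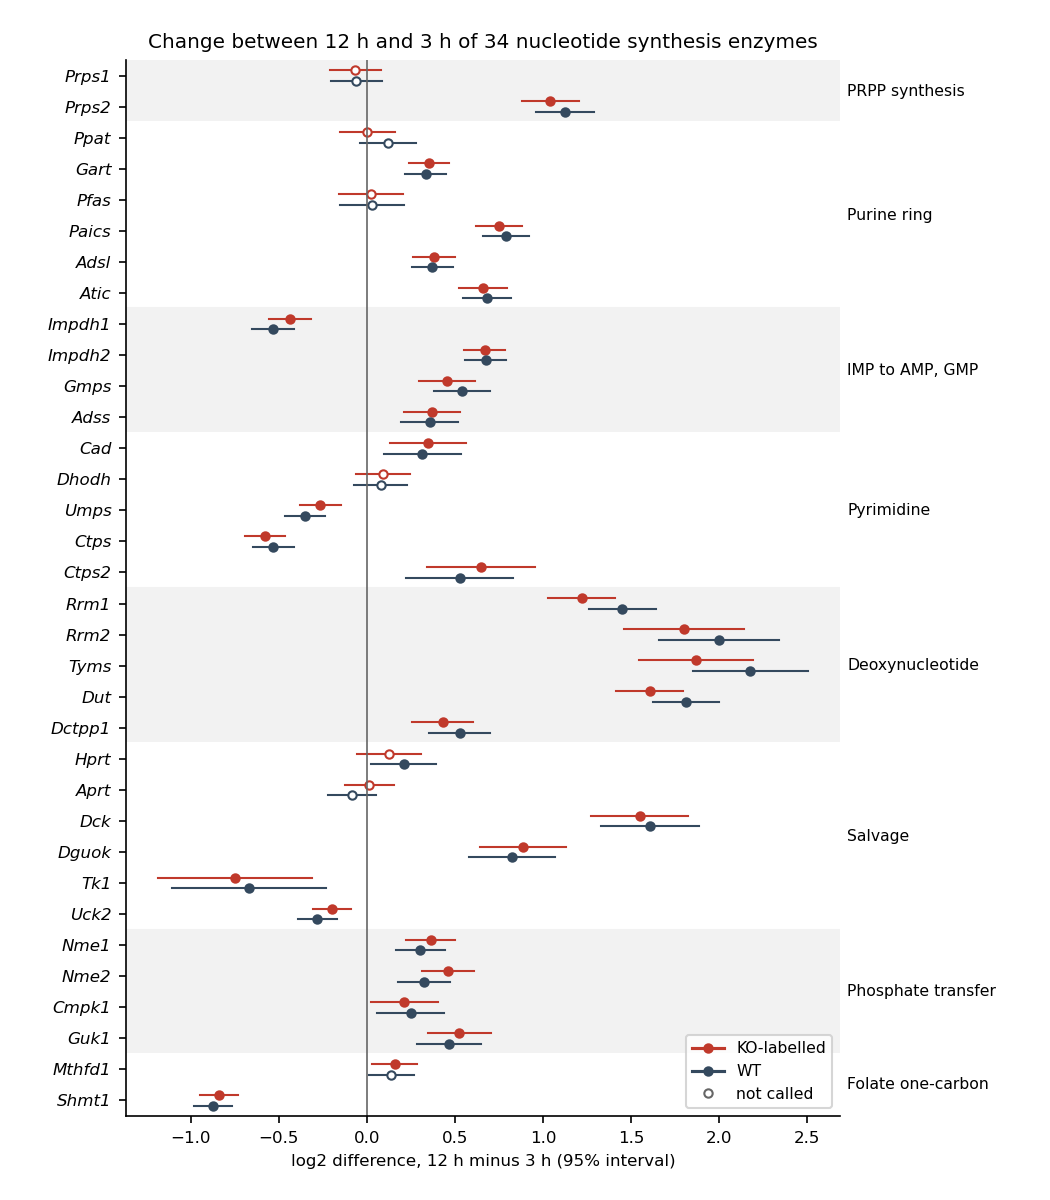
The log2 difference between 12 h and 3 h (horizontal axis) is plotted for each of the 34 members, grouped by role, with 95% intervals from the limma fit on 3 libraries per group; filled points were called and open points were not. The 5 deoxynucleotide synthesis genes lie right of 0 in both genotypes, and Shmt1, Tk1, Ctps, Impdh1, Umps and Uck2 lie left of it.

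The genes of deoxynucleotide synthesis rose most, with all 5 called higher in both genotypes and a median change of 1.61 in KO-labelled and 1.81 in WT cells. Tyms, thymidylate synthase (GRCm38 chromosome 5, 30058202 to 30073617, minus strand), stood at 9.53, 9.49 and 9.48 in KO-labelled libraries at 12 h, against 7.62, 7.76 and 7.53 at 3 h. In WT libraries it stood at 9.49, 9.74 and 9.59 at 12 h, against 7.77, 7.42 and 7.09 at 3 h. Every 12 h library was above every 3 h library. The rise was 1.87 ± 0.15 in KO-labelled cells, or 3.65-fold, and 2.18 ± 0.15 in WT cells, or 4.53-fold (adjusted p by limma = 2.73e-08 and 4.51e-09). For differences, here and below, ± is the SE of the limma fit, whose spread was estimated from all 12 libraries together. Rrm2, the small subunit of ribonucleotide reductase that is made mainly in cells preparing to copy DNA (chromosome 12, 24708241 to 24714146, plus strand), stood at 8.43, 8.32 and 8.50 in KO-labelled libraries at 12 h, against 6.65, 6.36 and 6.83 at 3 h. In WT libraries it stood at 8.49, 8.70 and 8.64 at 12 h, against 6.60, 6.42 and 6.81 at 3 h. The times did not overlap, and Rrm2 rose 3.48-fold in KO-labelled and 3.99-fold in WT cells (limma adjusted p = 7.41e-08 and 2.18e-08).

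Dut, the pyrophosphatase that clears dUTP and yields dUMP for thymidylate synthase (chromosome 2, 125247190 to 125258608, plus strand), stood at 12.30, 12.31 and 12.02 in KO-labelled libraries at 12 h, against 10.54, 10.56 and 10.70 at 3 h. In WT libraries it stood at 12.18, 12.43 and 12.27 at 12 h, against 10.51, 10.38 and 10.54 at 3 h. It rose by 1.61 ± 0.09 in KO-labelled and 1.81 ± 0.09 in WT cells (limma adjusted p = 3.14e-10 and 8.07e-11), with no overlap between the times. Rrm1, the large subunit of the reductase (chromosome 7, 102441695 to 102469771, plus strand), averaged 12.55 ± 0.14 in KO-labelled libraries at 12 h and 11.33 ± 0.02 at 3 h (SD, n = 3 each). In WT libraries it averaged 12.70 ± 0.14 at 12 h and 11.25 ± 0.16 at 3 h. Rrm1 thus rose 2.33-fold in KO-labelled and 2.73-fold in WT cells (limma adjusted p = 8.20e-09 and 1.05e-09), less than its partner Rrm2 in each genotype. The difference in rise between these subunits was not tested. Dctpp1, which hydrolyses dCTP and modified cytosine nucleotides, had the smallest rise of the group, 0.43 ± 0.08 in KO-labelled and 0.53 ± 0.08 in WT cells (limma adjusted p = 0.000206 and 2.87e-05).

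**Figure D2:**
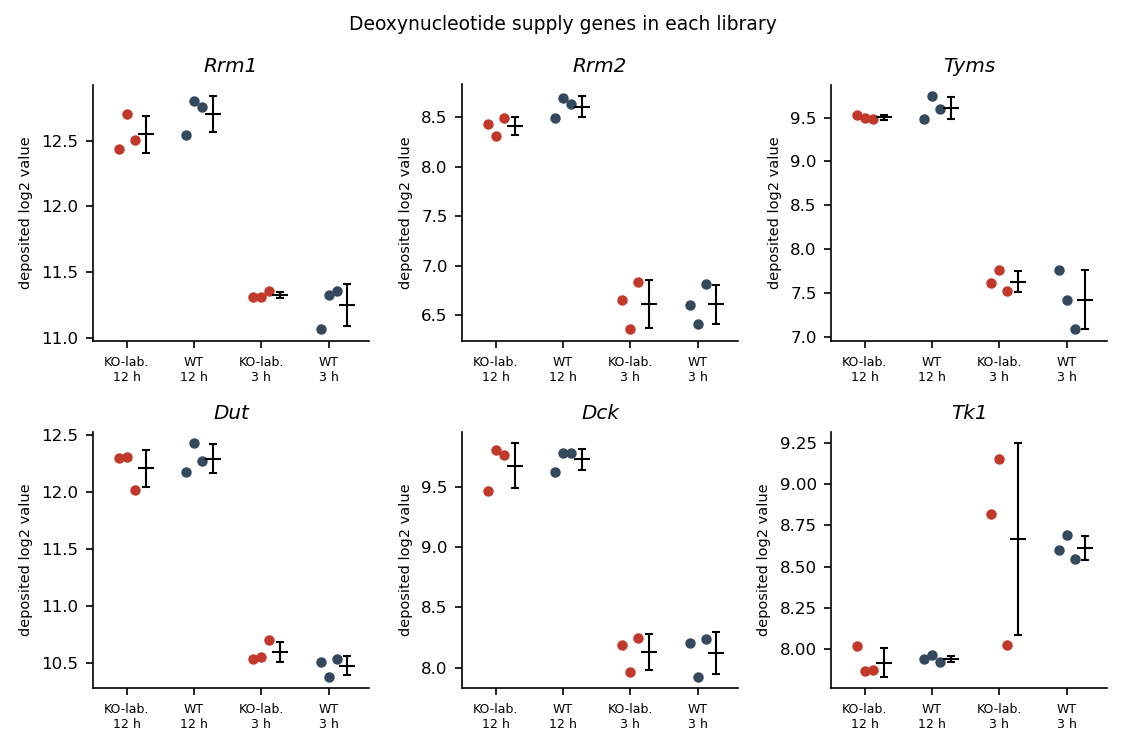
The deposited log2 value (vertical axis, a separate range in each panel) of 6 members is plotted for each of the 12 libraries, with the mean ± SD of 3 libraries in black. Rrm1, Rrm2, Tyms, Dut and Dck are higher in all 12 h libraries than in any 3 h library, while Tk1 is lower at 12 h, with 1 KO-labelled 3 h library at 8.03, near the 12 h level.

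The salvage kinases of deoxynucleosides did not move together. Dck, deoxycytidine kinase, which phosphorylates deoxycytidine and the purine deoxynucleosides in the cytosol, stood at 9.47, 9.81 and 9.76 in KO-labelled libraries at 12 h, against 8.18, 7.96 and 8.24 at 3 h. In WT libraries it stood at 9.63, 9.78 and 9.78 at 12 h, against 8.20, 7.92 and 8.24 at 3 h. These times did not overlap, and Dck rose 2.93-fold in KO-labelled and 3.05-fold in WT cells (limma adjusted p = 3.87e-08 and 2.44e-08). Dguok, its mitochondrial counterpart for purine deoxynucleosides, rose by 0.89 ± 0.11 and 0.82 ± 0.11 in KO-labelled and WT cells (adjusted p = 4.47e-06 and 9.46e-06). Tk1, cytosolic thymidine kinase (chromosome 11, 117815526 to 117826092, minus strand), moved the other way. It stood at 8.02, 7.87 and 7.87 in KO-labelled libraries at 12 h, against 8.82, 9.15 and 8.03 at 3 h, and at 7.94, 7.96 and 7.92 in WT libraries at 12 h, against 8.60, 8.69 and 8.55 at 3 h. Tk1 fell by 0.75 ± 0.21 on the log2 scale in KO-labelled cells and by 0.67 ± 0.21 in WT cells (adjusted p = 0.00433 and 0.00878). In KO-labelled cells the lowest 3 h library, replicate 3, lay just above the highest 12 h library. The change was -1.07 without this library, -0.50 without KO-labelled 3 h replicate 2 (adjusted p = 0.0300) and -0.48 without the 4 replicate 2 libraries, where the call was lost (adjusted p = 0.0994). The start of Tk1 lies 168 bases from that of Afmid, which encodes kynurenine formamidase on the other strand, and the genes share 83 exon bases. Afmid fell too, by 1.07 ± 0.14 in KO-labelled and 0.99 ± 0.14 in WT cells, and since the libraries carry no strand mark, reads from the shared bases cannot be assigned to either gene.

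Among the other salvage members, Uck2, the uridine and cytidine kinase of growing cells, fell by 0.20 ± 0.05 in KO-labelled and 0.28 ± 0.05 in WT cells (limma adjusted p = 0.00261 and 0.000150). Under quantile normalization its change was -0.03 in KO-labelled and -0.11 in WT cells, and neither was called (0.610 and 0.0542). Hprt and Aprt, which join free purine bases to PRPP, stood at 12.78 to 13.21 and 13.13 to 13.40 over all 12 libraries. Hprt changed by 0.13 ± 0.09 in KO-labelled cells, which was not called, and rose by 0.21 ± 0.09 in WT cells (adjusted p = 0.209 and 0.0420). The WT call ended without WT 3 h replicate 1 and WT 12 h replicates 1 and 2 (adjusted p = 0.184, 0.110 and 0.101), and without KO-labelled 3 h replicate 3 Hprt was called higher in KO-labelled cells too (adjusted p = 0.0486). Under quantile normalization Hprt was likewise called in KO-labelled cells (0.28, adjusted p = 0.00634), and under median centring the WT change was 0.10 and not called (0.338). Aprt differed by 0.01 and -0.09 in KO-labelled and WT cells and was called in neither (adjusted p = 0.855 and 0.254).

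Purine synthesis showed rises in most of its genes. Of 6 ring synthesis genes 4 rose in each genotype, with a median of 0.37 in KO-labelled and 0.35 in WT cells, and 2, Ppat and Pfas, were not called. Under quantile normalization both were called higher, Ppat by 0.18 in KO-labelled and 0.29 in WT cells (limma adjusted p = 0.0305 and 0.00174) and Pfas by 0.22 and 0.21 (0.0361 and 0.0428). Ppat, whose amidotransferase commits PRPP to purine synthesis, changed by 0.00 ± 0.07 in KO-labelled and 0.12 ± 0.07 in WT cells (limma adjusted p = 0.979 and 0.168). Pfas, FGAM synthase, which adds a later nitrogen of the ring, had the smallest change of the 34 members when averaged over the genotypes. It stood at 13.71, 13.74 and 13.93 in KO-labelled libraries at 12 h, against 13.96, 13.79 and 13.56 at 3 h, and at 13.82, 13.82 and 13.83 in WT libraries at 12 h, against 13.81, 13.86 and 13.71 at 3 h. The times overlapped in both genotypes, and the 95% interval of the change ran from -0.16 to 0.20 in KO-labelled and from -0.15 to 0.21 in WT cells. Paics, the carboxylase and synthetase of the middle steps, rose 1.68-fold in KO-labelled and 1.73-fold in WT cells (adjusted p = 2.93e-08 and 1.56e-08). Atic, which carries out the last 2 steps to IMP, rose 1.58-fold and 1.61-fold in KO-labelled and WT cells (2.01e-07 and 1.36e-07). Smaller rises were seen in Gart, a protein with 3 activities in ring synthesis (0.35 and 0.33), and in Adsl, adenylosuccinate lyase (0.38 and 0.37). Of the exon bases of Gart 19.7% are shared with an antisense gene model, so its value could hold reads of both.

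At the branch from IMP, Gmps, GMP synthetase, rose by 0.46 ± 0.08 in KO-labelled and 0.54 ± 0.08 in WT cells (limma adjusted p = 5.53e-05 and 1.01e-05). Adss, which takes the first step towards AMP, rose by 0.37 ± 0.08 and 0.36 ± 0.08 in KO-labelled and WT cells (adjusted p = 0.000417 and 0.000565). The IMP dehydrogenase genes, which take the first step towards GMP, went opposite ways and are given with the paired genes below.

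In pyrimidine synthesis the first enzyme rose and a later one fell. Cad, the protein that carries the first 3 activities of the pathway, rose by 0.35 ± 0.10 in KO-labelled and 0.32 ± 0.10 in WT cells (limma adjusted p = 0.00673 and 0.0122), and the WT call ended without WT 3 h replicate 3 (adjusted p = 0.0625). Under median centring the changes of Cad were 0.22 in KO-labelled and 0.21 in WT cells and neither was called (0.0658 and 0.0781). Dhodh, the mitochondrial dehydrogenase of the fourth step, stood at 11.32 to 11.62 over all libraries and was not called (0.09 ± 0.07 and 0.08 ± 0.07; adjusted p = 0.273 and 0.350). Umps, which makes UMP, fell by 0.27 ± 0.05 in KO-labelled and 0.35 ± 0.05 in WT cells (adjusted p = 0.000446 and 3.08e-05), and under quantile normalization its change in KO-labelled cells was -0.08 and not called (0.168). The CTP synthase genes, which act after UMP, are given with the paired genes.

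Several enzymes are encoded by 2 related genes, and in 3 such pairs the genes changed unequally with time. Prps2 rose 2.06-fold in KO-labelled and 2.18-fold in WT cells, while Prps1, which encodes the other PRPP synthetase, changed by -0.06 ± 0.07 in each and was not called (limma adjusted p = 0.410 in KO-labelled and 0.454 in WT cells). Prps2 stood at 12.16, 12.30 and 12.17 in KO-labelled libraries at 12 h, against 11.35, 11.00 and 11.15 at 3 h, and at 12.15, 12.15 and 12.16 in WT libraries at 12 h, against 11.05, 11.00 and 11.04 at 3 h. Prps1 stood at 12.75, 12.85 and 12.72 in KO-labelled libraries at 12 h, against 12.86, 12.71 and 12.95 at 3 h, and at 12.78, 12.82 and 12.77 in WT libraries at 12 h, against 12.74, 12.88 and 12.93 at 3 h. The times were apart for Prps2 and overlapped for Prps1.

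Impdh2, the IMP dehydrogenase of proliferating cells, stood at 15.40, 15.28 and 15.28 in KO-labelled libraries at 12 h, against 14.64, 14.67 and 14.66 at 3 h. In WT libraries Impdh2 stood at 15.31, 15.38 and 15.35 at 12 h, against 14.62, 14.75 and 14.64 at 3 h. Impdh1, the other IMP dehydrogenase, stood at 13.64, 13.51 and 13.59 in KO-labelled libraries at 12 h, against 14.02, 14.09 and 13.95 at 3 h. Both were apart between the times, in opposite directions. In WT libraries Impdh1 stood at 13.57, 13.62 and 13.62 at 12 h, against 14.15, 14.20 and 14.07 at 3 h. Impdh2 rose 1.59-fold in KO-labelled and 1.60-fold in WT cells (limma adjusted p = 3.40e-08 and 3.01e-08), and Impdh1 fell by 0.44 ± 0.06 and 0.53 ± 0.06 (4.87e-06 and 5.40e-07).

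The CTP synthase genes also went opposite ways. Ctps stood at 13.79, 13.90 and 13.81 in KO-labelled libraries at 12 h, against 14.40, 14.42 and 14.41 at 3 h, and at 13.85, 13.95 and 13.87 in WT libraries at 12 h, against 14.34, 14.47 and 14.46 at 3 h. Ctps2 stood at 9.39, 9.26 and 9.29 in KO-labelled libraries at 12 h, against 8.45, 8.75 and 8.79 at 3 h, and at 9.55, 9.68 and 9.40 in WT libraries at 12 h, against 9.27, 8.70 and 9.09 at 3 h. Ctps fell by 0.58 ± 0.05 in KO-labelled and 0.53 ± 0.05 in WT cells (limma adjusted p = 1.31e-07 and 3.41e-07). Ctps2 rose by 0.65 ± 0.14 and 0.53 ± 0.14 (0.000837 and 0.00405), and the WT call ended without the 4 replicate 2 libraries (0.30, adjusted p = 0.131).

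The log2 ratio within a library is given for 5 gene pairs that were chosen after their values were seen, as a description with no test. Prps2 over Prps1 shifted by 1.11 in KO-labelled and 1.19 in WT cells, Impdh2 over Impdh1 by 1.11 and 1.21, and Ctps2 over Ctps by 1.23 and 1.06. In each of these 3 pairs, and for Paics over Ppat, every 12 h library had a higher ratio than every 3 h library. Paics and Ppat start 271 bases apart on opposite strands of chromosome 5 and share 272 exon bases, so a part of their reads cannot be assigned to either gene. Their log2 ratio shifted by 0.75 in KO-labelled and 0.67 in WT cells. Nme2 over Nme1, neighbours on chromosome 11, shifted by 0.10 in KO-labelled and 0.02 in WT cells. For this pair the ratios at 12 h and 3 h overlapped in WT cells. In KO-labelled cells they did not, at 0.60 to 0.66 at 12 h against 0.52 to 0.56 at 3 h.

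**Figure D3:**
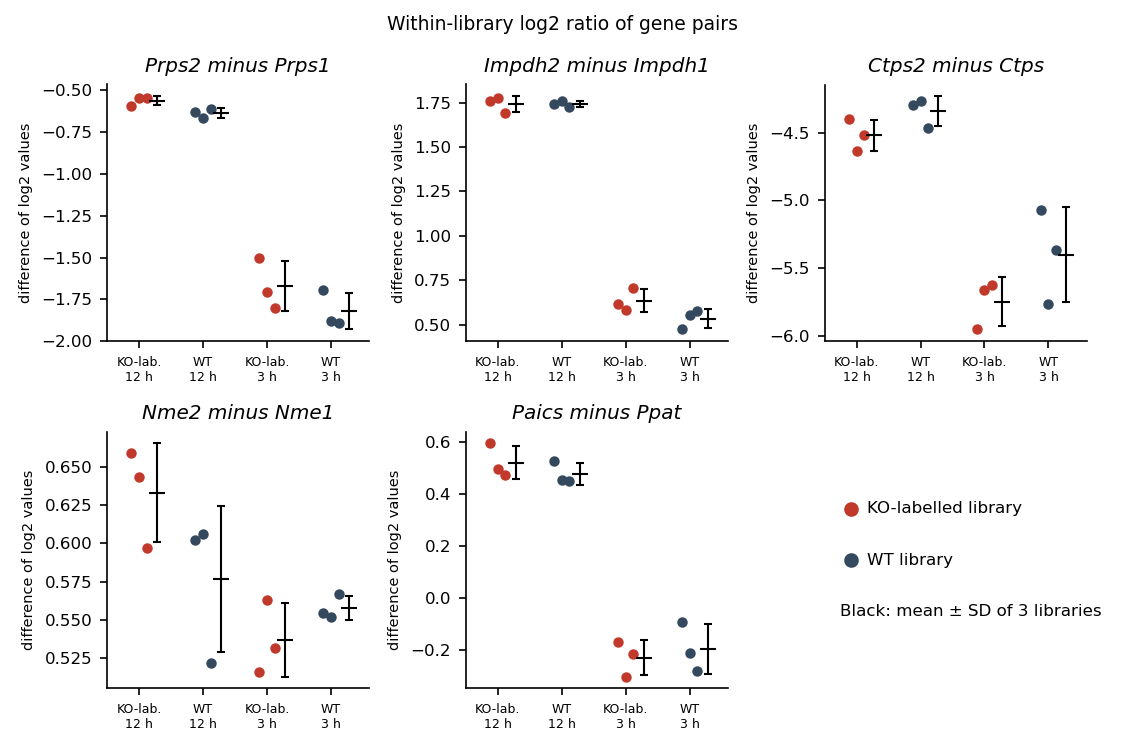
The log2 ratio of 2 genes within each library (vertical axis, a separate range in each panel) is plotted for 5 gene pairs in the 4 groups, with the mean ± SD of 3 libraries in black. In the panels of Prps, Impdh, Ctps and Paics with Ppat all 12 h libraries lie above all 3 h libraries. In the Nme panel WT libraries at 12 h and 3 h overlap, while KO-labelled libraries do not.

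Nme1 and Nme2, the nucleoside diphosphate kinases that make the triphosphates, rose side by side. Nme1 stood at 14.86, 14.64 and 14.65 in KO-labelled libraries at 12 h, against 14.34, 14.33 and 14.39 at 3 h, and at 14.62, 14.74 and 14.73 in WT libraries at 12 h, against 14.39, 14.46 and 14.33 at 3 h. Nme2 stood at 15.52, 15.28 and 15.25 in KO-labelled libraries at 12 h, against 14.86, 14.89 and 14.92 at 3 h, and at 15.22, 15.35 and 15.25 in WT libraries at 12 h, against 14.95, 15.01 and 14.89 at 3 h. Nme1 rose by 0.36 ± 0.07 in KO-labelled and 0.30 ± 0.07 in WT cells (limma adjusted p = 0.000129 and 0.000654), and Nme2 by 0.46 ± 0.07 and 0.32 ± 0.07 (2.38e-05 and 0.000679). A read-through gene model shares 12.5% of the exon bases of Nme1 and 48.9% of those of Nme2, so the levels of both are uncertain. Guk1, which phosphorylates GMP, rose by 0.52 ± 0.08 in KO-labelled and 0.47 ± 0.08 in WT cells (4.58e-05 and 0.000145).

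Cmpk1, which phosphorylates CMP and UMP, rose by 0.21 ± 0.09 in KO-labelled and 0.25 ± 0.09 in WT cells (limma adjusted p = 0.0455 and 0.0220). The KO call of Cmpk1 was lost without KO-labelled 3 h replicate 2 (0.11, adjusted p = 0.248), KO-labelled 12 h replicates 2 and 3 (0.167 and 0.0914), WT 3 h replicate 2 (0.0544) and each WT 12 h replicate (0.0530, 0.0559 and 0.0579). Its WT call was lost without WT 3 h replicates 1 and 2 (0.0894 and 0.0517) and WT 12 h replicate 1 (0.0730). Under median centring the change of Cmpk1 was 0.08 in KO-labelled and 0.14 in WT cells and neither was called (0.453 and 0.193), and without the 4 replicate 2 libraries it was 0.06 in KO-labelled cells (0.614).

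The folate enzymes of the list went apart. Shmt1, cytosolic serine hydroxymethyltransferase, which loads one-carbon units from serine onto folate (chromosome 11, 60788104 to 60811718, minus strand), had the largest fall of the 34 members. It stood at 13.58, 13.52 and 13.57 in KO-labelled libraries at 12 h, against 14.42, 14.42 and 14.35 at 3 h, and at 13.71, 13.70 and 13.64 in WT libraries at 12 h, against 14.54, 14.61 and 14.52 at 3 h. The times were far apart in each genotype, and Shmt1 fell by 0.84 ± 0.05 in KO-labelled and 0.88 ± 0.05 in WT cells (limma adjusted p = 8.61e-10 and 5.04e-10). Shmt1 shares 184 exon bases, or 4.74% of its own, with Smcr8 on the other strand. Smcr8 fell by 0.36 and 0.31 in KO-labelled and WT cells. Mthfd1, the cytosolic enzyme that interconverts folate one-carbon units, rose by 0.16 ± 0.06 in KO-labelled cells (adjusted p = 0.0303) and differed by 0.14 ± 0.06 in WT cells, which was not called (0.0517). The KO call of Mthfd1 ended without KO-labelled 3 h replicate 3 and KO-labelled 12 h replicates 2 and 3 (0.154, 0.0723 and 0.0622). In WT cells Mthfd1 was called higher without KO-labelled 3 h replicates 2 and 3 and WT 12 h replicate 1 (0.0425, 0.0290 and 0.0279), and with the replicate number as a block (0.0462). Median centring gave a change of 0.03 in KO-labelled cells, not called (0.726), and quantile normalization 0.38 in WT cells, which was called (1.75e-05).

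Around these members, 9 lists of other genes of nucleotide metabolism and of DNA replication were followed, of which 86 of 101 genes were kept. With time 43 of the 86 were higher and 20 lower in KO-labelled cells, and 45 were higher and 23 lower in WT cells. Among all genes tested 34.3% were higher and 33.6% lower in each genotype, and the counts of each list are to be read beside these shares. The 16 genes of replication licensing and E2F activity moved most, with 14 called higher in KO-labelled and 15 in WT cells, 0 lower, and medians of 1.82 and 2.00. Among them the helicase subunit Mcm3 rose by 2.54 ± 0.06 and 2.60 ± 0.06, and Gins1, of the replicative helicase complex, by 2.68 ± 0.25 and 2.81 ± 0.25. These genes thus rose beside the deoxynucleotide enzymes, and a part of cell cycle entry in the rise of those enzymes was not tested.

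Among 8 other genes of dNTP supply 4 rose in each genotype. Nudt1, which removes oxidised purine nucleotides, rose by 1.76 ± 0.11 in KO-labelled and 1.85 ± 0.11 in WT cells, and Dtymk, which phosphorylates dTMP, by 0.53 ± 0.07 and 0.55 ± 0.07. Of 8 other pyrimidine genes 5 rose in each genotype, and 2 fell in KO-labelled and 3 in WT cells. Nme7 rose by 2.75 ± 0.18 and 2.62 ± 0.18 and Nme4, a mitochondrial nucleoside diphosphate kinase, by 2.43 ± 0.18 and 1.98 ± 0.18, while the UMP-CMP kinase Cmpk2 fell (-1.87 ± 0.29 in KO-labelled and -2.33 ± 0.29 in WT cells). Cmpk2 averaged 2.93 in KO-labelled and 2.83 in WT libraries at 12 h, against 4.80 and 5.16 at 3 h. It passed the filter, a mean of at least 3, only through its 3 h levels, so its fall is not independent of that filter. Of 13 other purine genes 5 rose and 3 fell in KO-labelled cells, and 6 rose and 4 fell in WT cells. Ak4, a mitochondrial adenylate kinase, rose by 1.71 ± 0.10 and 1.60 ± 0.10, and the AMP deaminase Ampd1 fell (-1.65 ± 0.32 and -2.31 ± 0.32).

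Of 11 breakdown genes 5 rose and 3 fell in each genotype. Xdh, the xanthine dehydrogenase that makes urate in purine breakdown, stood at 5.11, 4.93 and 5.04 in KO-labelled libraries at 12 h, against 8.41, 8.44 and 8.47 at 3 h. In WT libraries it stood at 4.91, 4.79 and 5.26 at 12 h, against 8.32, 8.30 and 8.71 at 3 h. All 12 h libraries lay far below the 3 h libraries, and the fall was -3.41 ± 0.18 in KO-labelled and -3.46 ± 0.18 in WT cells. Of 15 folate and serine genes 5 rose and 5 fell in each genotype, near the shares of all genes (34.3% higher and 33.6% lower). Among them Ggh, a folylpolyglutamate hydrolase, was up by 1.42 and 1.59 in KO-labelled and WT cells. Psph, the last enzyme of serine synthesis, was up by 1.20 and 1.42, and the folate enzyme Mthfs stood at -0.96 and -0.85. Of 7 pentose phosphate genes 4 rose in each genotype, led by Pgls, the lactonase of the oxidative branch (1.12 and 0.97), and 1 fell, Rpia, which makes ribose 5-phosphate (-0.56 and -0.63). Of 6 nucleoside transport genes 1 rose, Slc28a2 (0.99 and 0.75), and 4 fell, among them the mitochondrial pyrimidine carrier Slc25a33 (-0.71 and -0.71). Myc, whose protein drives many nucleotide synthesis genes, fell by 0.90 ± 0.07 in KO-labelled and 0.97 ± 0.07 in WT cells, and its partner Max was not called.

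**Figure D4:**
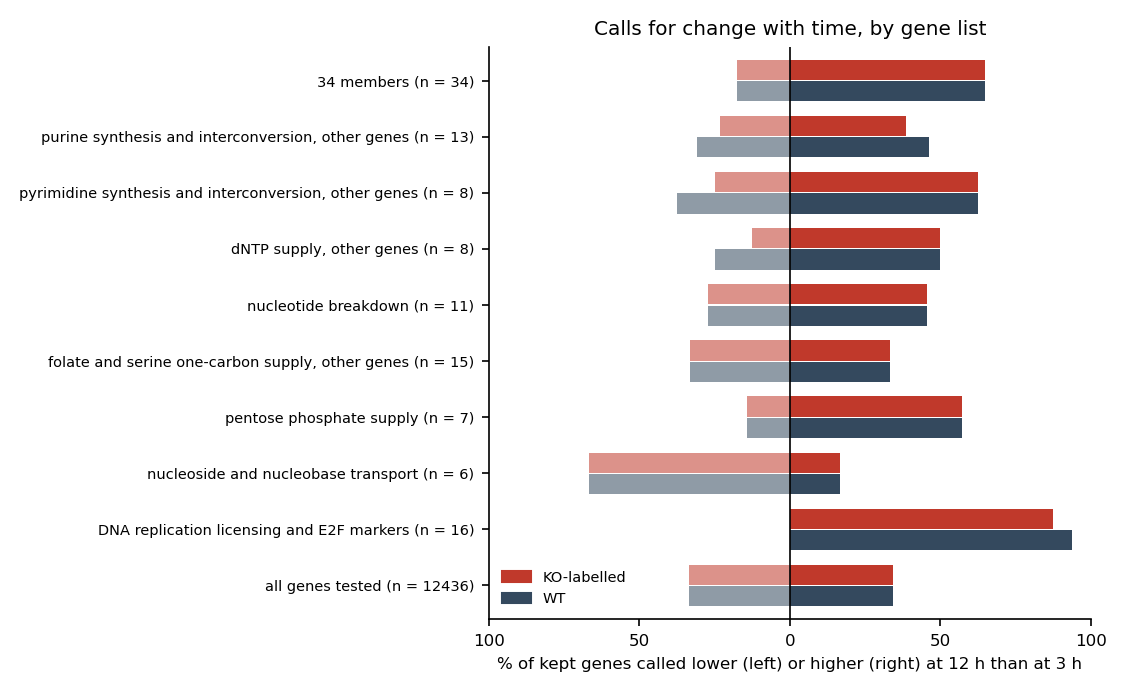
The share of kept genes called lower (left of 0) or higher (right of 0) at 12 h than at 3 h, in percent, is drawn for the 34 members, 8 of the other lists and all genes tested, with KO-labelled cells above WT cells. Of the 34 members 22 were higher and 6 lower in each genotype, and of the 16 replication genes 14 and 15 were higher and 0 lower.

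KO-labelled and WT cells differed little in these enzymes. At 12 h 0 of 34 members were called by limma, where 0.667% of all genes were, and 1 member had an unadjusted p under 0.05, where 6.37% of all genes did. At 3 h 0 of 34 were called, where 1.05% of all genes were, and 3 had an unadjusted p under 0.05, where 9.09% of all genes did. No alternative setting tried gave a called member at either time. Differences ran from -0.23 (Ctps2) to 0.10 (Cmpk1) at 12 h and from -0.35 (Ctps2) to 0.21 (Tyms) at 3 h, with a median of -0.04 at 12 h and -0.02 at 3 h, where the medians of all genes were -0.01 and -0.00. The 95% intervals lay wholly within a 1.25-fold change either way for 28 members at 12 h and 29 at 3 h. They lay within a 1.5-fold change for all 34 at 12 h and for 33 at 3 h, with Ctps2 the exception. A difference beyond these bounds is thus outside the intervals, while smaller ones remain possible. The difference was negative, lower in KO-labelled cells, in 26 of 34 members at 12 h, against 53.2% of all genes, and in 22 of 34 at 3 h, against 50.3% of all genes.

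**Figure D5:**
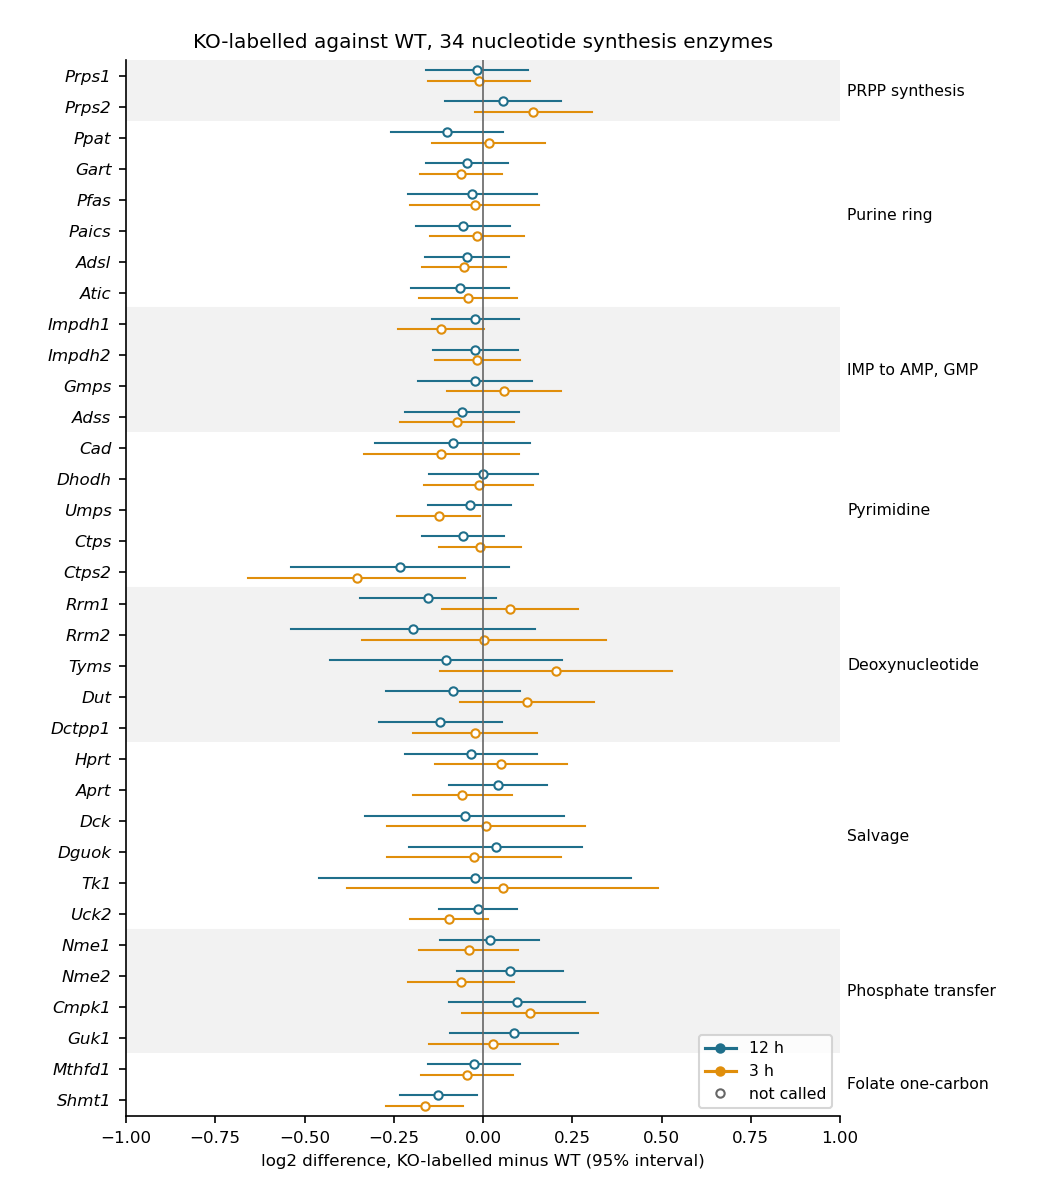
The log2 difference between KO-labelled and WT libraries (horizontal axis) is plotted for each of the 34 members at 12 h and at 3 h, with 95% intervals from the limma fit on 3 libraries per group; open points were not called. All points are open, and the widest departures from 0 are those of Ctps2, at -0.23 at 12 h and -0.35 at 3 h.

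Ctps2, on the X chromosome (162901238 to 163032508, plus strand), had the widest difference at both times. In its values given above, KO-labelled and WT libraries did not overlap at 12 h (-0.23 ± 0.14, SE; 95% interval -0.54 to 0.07; limma adjusted p = 0.994) and overlapped at 3 h (-0.35 ± 0.14; -0.66 to -0.05; 0.413). Prps1, Prps2 and Hprt are also X-linked, and their differences ran from -0.03 to 0.06 at 12 h and from -0.01 to 0.14 at 3 h. Tyms had the largest positive difference at 3 h, 0.21 ± 0.15 (95% interval -0.12 to 0.53; adjusted p = 0.792), with WT libraries at 3 h spread from 7.09 to 7.77. Rrm2 had the next widest difference at 12 h after Ctps2, -0.20 ± 0.16 (-0.54 to 0.15; 1.00). In KO-labelled libraries Rrm2 reached 8.50 at 12 h, above the lowest WT library at 8.49.

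The 5 deoxynucleotide enzymes all had a negative difference at 12 h, Rrm1 -0.15 ± 0.09, Rrm2 -0.20 ± 0.16, Tyms -0.10 ± 0.15, Dut -0.08 ± 0.09 and Dctpp1 -0.12 ± 0.08, and their values in KO-labelled and WT libraries overlapped in each. Dut stood at 0.01 at 12 h without KO-labelled 12 h replicate 3. At 3 h their differences were 0.08, 0.00, 0.21, 0.12 and -0.02 in the same order of genes. The change of the genotype difference between the times was called for 0 of 34 members and 0.00% of all genes, 0 members had an unadjusted p under 0.05, and the widest, for Tyms, was -0.31 with a 95% interval from -0.77 to 0.15. The replication genes had a median difference of -0.13 at 12 h and 0.02 at 3 h, with 0 of 16 called by limma at either time. For the mean over both times 1 of the 16 was called, Mcm3, lower in KO-labelled cells (-0.19 ± 0.04, adjusted p = 0.0354). The call of Mcm3 was not followed under the alternatives.

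Shmt1 was the 1 member whose KO-labelled and WT values were apart in the same direction at both times, as were those of 2.63% of all genes. Its highest KO-labelled value was 13.58 at 12 h, below the lowest WT value of 13.64, and its highest KO-labelled value at 3 h was 14.42, below the lowest WT value of 14.52. At 12 h the difference of -0.13 ± 0.05 was not called (adjusted p by limma = 0.603), nor was that of -0.16 ± 0.05 at 3 h (0.193). Averaged over both times it was -0.14 ± 0.04, or 1.11-fold lower, and was called (adjusted p = 0.0471), the 1 of 34 members called for this mean, where 2.29% of all genes were called. The call was weak. It was lost in all 12 fits that left out 1 library (adjusted p = 0.0626 to 0.122) and with the replicate block (0.0592), and the adjusted p ran from 0.0234 to 0.444 over its 21 alternatives. Without WT 3 h replicate 2 Ctps2 was called in its place (-0.37, adjusted p = 0.0364). Non-overlapping values were seen at 12 h in Shmt1 and Ctps2 (2 of 34, where 12.8% of all genes did not overlap) and at 3 h in Shmt1, Umps and Uck2 (3 of 34, where 11.6% did not), in each case lower in KO-labelled cells.

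Among the 86 other genes 1 was called higher and 0 lower in KO-labelled cells at 12 h, and 0 higher and 2 lower at 3 h. Of all genes 0.667% were called at 12 h and 1.05% at 3 h. The 2 genes lower at 3 h were Samhd1 and Ak4. Samhd1, a phosphohydrolase that breaks down deoxynucleoside triphosphates, stood at 10.71, 11.06 and 11.25 in KO-labelled libraries at 3 h, against 12.68, 11.77 and 12.26 in WT libraries at 3 h. The groups did not overlap, and Samhd1 was lower in KO-labelled cells, with a difference of -1.23 ± 0.17 (limma adjusted p = 0.00308). It was called in 20 of 22 alternatives, and not without the filter on low values (0.0806) or without the trend in the prior (0.0585). At 12 h it stood at 11.23, 11.46 and 11.35 in KO-labelled libraries, against 11.83, 11.86 and 11.77 in WT libraries, a difference of -0.48 ± 0.17 that was not called (0.438). The change of the difference between the times was 0.76 ± 0.24 and was not called (0.814).

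Ak4 stood at 8.79, 8.61 and 8.84 in KO-labelled libraries at 3 h, against 9.14, 9.24 and 9.22 in WT libraries at 3 h, with no overlap. The difference was -0.45 ± 0.10, lower in KO-labelled cells (limma adjusted p = 0.0414). The call of Ak4 held in 5 of 22 alternatives, with adjusted p from 0.0369 to 0.278, and was lost without any 1 library of the 3 h groups (0.0538 to 0.131), any 1 of WT at 12 h (0.0555, 0.0658 and 0.0701) and KO-labelled 12 h replicate 3 (0.0577). At 12 h Ak4 differed by -0.34 ± 0.10, which was not called (0.211). Averaged over both times its difference was -0.40 ± 0.07 (0.00594) and was called in 20 of 21 alternatives, with adjusted p from 0.00363 to 0.0541, and that of Samhd1 was -0.85 ± 0.12 (0.00110) and was called in all 21. For this mean 2 of the 86 genes were called higher and 3 lower in KO-labelled cells, where 2.29% of all genes were called. Among those higher was the nucleoside transport gene Slc29a3 (0.29 ± 0.07, limma adjusted p = 0.0446), whose call was not followed under the alternatives. The gene called at 12 h was Nt5e, the ectoenzyme CD73 that makes adenosine outside the cell.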

How the data were processed

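The deposited table holds log2 expression values per gene for 12 libraries (3 in each of 4 groups), made by the authors with Trim Galore, STAR, featureCounts and DESeq2 on build mm10, per the submitters' processing notes. No source used here gives the versions, options, annotation or exact transform, so a difference is on the deposited log2 scale. Values ran from -2.37 to 20.1, and 5663 rows were at 0 in every library. The libraries came from the TruSeq V2 kit, which marks no strand, and read depths are unknown.

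Genes with a mean of at least 3 were kept. limma 3.58.1 in R 4.3.3 fitted the 4 group means with a prior that follows the mean level, tests were two-sided, and p-values were Benjamini-Hochberg adjusted over all 12436 kept genes and called under 0.05. The genotype difference was also averaged over both times. Members named with full values were those called between genotypes, the 2 widest genotype differences at each time, the 3 largest rises and falls and the smallest change with time, and duplicated genes; Rrm1, Dck, Samhd1, Ak4 and Xdh were added after their values were seen. In the other lists up to 3 genes with the largest change were named, except 1 gene that is not reported here. Members, gene lists and tests were chosen with earlier results of these data known. Positions are from GENCODE vM21 (GRCm38).

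The titles number the replicates of each group. Deviations of same-numbered libraries from their group means correlated at 0.19, 0.40 and 0.35 between KO-labelled and WT at 3 h, and at 0.17, 0.50 and 0.19 at 12 h. Between the times they correlated at 0.21, 0.43 and 0.21 in WT and at 0.06, 0.37 and 0.09 in KO-labelled cells. The 4 replicate 2 libraries are those with low Xist and high Ddx3y. As deviations within a group balance out, what these libraries share also raises the other correlations. The correlations therefore do not show that the numbers pair libraries. The main fits used no pairing, and a replicate block was an alternative.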

Additional observations from a re-analysis of the deposited data

How the results depend on the processing

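Under 22 alternatives for each genotype (no filter or a mean of 5, no trend, array weights, quantile normalization, median centring, a replicate block with and without weights, the compared groups alone, and leaving libraries out), 24 to 29 members were called between 12 h and 3 h in KO-labelled and 26 to 30 in WT cells. The replicate block gave 28 in KO-labelled and 29 in WT cells and the fits without 1 library 26 to 28 and 26 to 29. Of the 56 calls 45 were kept under every alternative, and 21 members were kept in both genotypes. Calls of Umps and Uck2 in KO-labelled cells ended under quantile normalization (adjusted p = 0.168 and 0.610), as did that of Uck2 in WT cells (0.0542), and those of Cad in KO-labelled and WT cells under median centring (0.0658 and 0.0781). Cad in WT cells was also lost with no filter and without the 4 replicate 2 libraries (0.0525 and 0.0593). Median centring ended the calls of Hprt in WT cells (0.338), Cmpk1 in KO-labelled and WT cells (0.453 and 0.193) and Mthfd1 in KO-labelled cells (0.726). The KO call of Cmpk1 also ended with no filter, no trend, quantile normalization and the compared groups alone (limma adjusted p = 0.0878, 0.0740, 0.0686 and 0.0741). Hprt in WT cells was also lost with no filter and no trend (0.109 and 0.0904). Mthfd1 in KO-labelled cells was also lost with no trend and the compared groups alone (0.0592 and 0.0684). Without the 4 replicate 2 libraries Mthfd1 and Uck2 were lost in KO-labelled cells (0.0517 and 0.0549). Calls gained under quantile normalization were Ppat and Pfas in both genotypes, Hprt and Aprt in KO-labelled cells and Mthfd1 in WT cells, and under median centring Prps1 in KO-labelled and Aprt in WT cells (lower). Median centring moved the median of all genes by -0.13 in KO-labelled and -0.11 in WT cells. For the genotype difference and its change with time, 0 members were called under every alternative, block included. The member called for the mean of both times (1) was lost, leaving 0, with no filter, no trend, quantile normalization, median centring, the replicate block or without the 4 replicate 2 libraries, and the fits without 1 library gave 0 to 1. The causes were not tested.

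Changes that were not called turned sign as follows. Under quantile normalization Prps1 changed by 0.080 in KO-labelled and 0.081 in WT cells, and Aprt by 0.080 in WT cells. Under median centring Ppat, Pfas, Dhodh, Hprt and Aprt changed by -0.13, -0.11, -0.041, -0.0062 and -0.12 in KO-labelled cells, and Pfas and Dhodh by -0.080 and -0.031 in WT cells. Array weights gave -0.0094 for Pfas and -0.022 for Aprt, with the replicate block added -0.010 for Ppat and -0.024 for Aprt, and leaving out the 4 replicate 2 libraries -0.057 for Ppat and -0.027 for Hprt, all in KO-labelled cells. Without 1 library the change in KO-labelled cells ran from -0.046 to 0.041 for Ppat, -0.083 to 0.12 for Pfas and -0.051 to 0.081 for Aprt, and in WT cells from -0.013 to 0.060 for Pfas. The genotype difference at 3 h ran from -0.017 to 0.13 for Rrm1, -0.11 to 0.13 for Rrm2 and -0.071 to 0.059 for Dctpp1, and that of Dut at 12 h from -0.14 to 0.010.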
